A study of Homo sapiens with 4 samples.

Results

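The gene body of SMG6 was examined here as a block of chromatin contacts on the short arm of chromosome 17. The rule for the block used position and no contact value: it comprised the 239 bins of the contact matrices that lie inside SMG6 between its neighbour HIC1 and the SMG6 start (hg38). Taken as non-overlapping 10-kb windows it held 24 of the 148 windows of the deposited region, and spanned chr17:2063501-2303500. The 24 windows form 276 pairs, of which 253 lie at least 20 kb apart and were used for all contact values below unless another limit is given. The region as a whole had 10733 such pairs.

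Contacts had been measured by Hi-C in hESCs, human embryonic stem cells of the established line H9 labelled as wild type and untreated (2 libraries), and in wild-type neuroectodermal cells, which the study derived from hESCs by differentiation in culture (2 libraries). Both groups come from 1 cell line. Hi-C joins pieces of DNA that lie close together in the fixed nucleus, so a read pair counts a contact between the positions of its ends. The labels do not say whether the replicates were separate cultures, so the spread between them may be technical. The matrices hold no expression values, so the labelled cell type could not be checked against marker genes.

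SMG6 encodes an endonuclease of nonsense-mediated decay, the pathway that destroys mRNAs with premature stop codons. Its introns hold HAR123, an element conserved among mammals that changed fast in the human lineage and acts as an enhancer in neural progenitors, and its coding sequence holds a further such element, HAR53. Mammalian chromosomes are folded into contact domains, stretches whose positions meet each other more often than they meet positions beyond a border. Such domains are built largely by cohesin, which extrudes loops of DNA until it is stopped by the DNA-binding protein CTCF. At the low-coordinate border of the block lie HIC1, which encodes a transcriptional repressor and tumour suppressor, and the microRNA genes MIR212 and MIR132, known for their roles in neurons. At the other border lies SRR, which encodes serine racemase, the enzyme that makes D-serine.

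All of the block is SMG6 gene (GENCODE annotation, minus strand, chr17:2059839-2303785). HIC1 (plus strand, chr17:2054154-2063241) ended 0.26 kb before the block, and the start of full-length SMG6 lay 285 bases beyond its other end. Exons of any SMG6 transcript made up 3.33% of the block, so almost all of it is intron. Of 20 annotated SMG6 transcripts, 18 start inside the block. It held no other protein-coding gene as a whole. The first 118 bases of SRR (plus strand, chr17:2303383-2325260) fell in its last window. HAR123 was placed by the study in intron 9 of SMG6, which spans chr17:2236638-2244657, and 85.6% of this intron lay in the window chr17:2233501-2243500, called the HAR123 window here. The position of HAR123 within the intron was not determined, so it may lie in the next window. HAR53 (chr17:2299667-2300041) lay in coding exon 2 and fell in the last window of the block, chr17:2293501-2303500.

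The sequence of the block differed from that of the windows around it. Its GC content was 45.6% against 50.4% in the other 124 windows, and within it the content ranged from 41.7% to 54.3%, with the highest value in the first window, next to HIC1. The 12-letter core of the CTCF motif, CCNNNAGGNGGC, was searched on both strands. It occurred 2 times in the block and 75 times in the other windows, or 0.833 against 6.05 matches per 100 kb. A match lay in 2 of 24 windows of the block (8.33%) and in 52 of 124 other windows (41.9%). No CTCF binding was measured here, and a match is a string of letters and not a bound site. The matches in the block and within 30 kb of it are shown because they show how unevenly the core is placed about the 2 borders. Each is given 5′ to 3′ on its own strand with the core in capitals (hg38).
Site 1, chr17:2036709-2036720, minus strand: gctgtccacCCTGCAGGAGGCcgaggatcc
Site 2, chr17:2041474-2041485, plus strand: ccctcccctCCCCTAGGCGGCcgtggctct
Site 3, chr17:2050509-2050520, plus strand: caaagatgtCCCAGAGGGGGCacttccggc
Site 4, chr17:2055020-2055031, plus strand: cctgcgcgcCCGCGAGGTGGCgccatagcc
Site 5, chr17:2057100-2057111, minus strand: cgccgccgcCCCGCAGGTGGCagtacttgc
Site 6, chr17:2057874-2057885, minus strand: atgggtagcCCTCGAGGTGGCcgccaggcg
Site 7, chr17:2058082-2058093, minus strand: ccgccgcctCCAAAAGGGGGCcctaggccg
Site 8, chr17:2058682-2058693, plus strand: cctgcacgaCCCCAAGGTGGCgctggagag
Site 9, chr17:2070842-2070853, minus strand: gcctgtcacCCTCTAGGTGGCagccctatg
Site 10, chr17:2107835-2107846, plus strand: ggaatggtgCCGAAAGGAGGCcagcatggg
Site 11, chr17:2324205-2324216, minus strand: tcaacagtgCCTCAAGGGGGCatggagtaa
Sites 1 to 8 lay on the HIC1 side of the block, sites 9 and 10 inside it, and site 11 near the far end of SRR. The 8 matches on the HIC1 side were found on both strands, 4.82 to 26.8 kb from the block, and 5 of them stood within 9 kb of it. On the SRR side the only match within 30 kb was 20.7 kb away. Between site 10 and site 11 no window of the block held a match.

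RefSeq lists promoters for 3 internal SMG6 starts in the block (GRCh38.p14). They are shown because contacts between their windows are given below. Each runs from 250 bases before the start to 50 bases from the start on, and the bases from the start on are in capitals.
Internal start 2088761, chr17:2088712-2089011, minus strand: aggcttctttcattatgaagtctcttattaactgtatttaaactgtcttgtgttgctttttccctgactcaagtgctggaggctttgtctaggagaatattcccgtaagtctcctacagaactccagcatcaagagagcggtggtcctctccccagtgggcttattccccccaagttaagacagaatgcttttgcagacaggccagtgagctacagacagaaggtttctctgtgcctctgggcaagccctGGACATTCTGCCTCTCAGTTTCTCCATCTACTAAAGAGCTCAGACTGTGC
Internal start 2236847, chr17:2236798-2237097, minus strand: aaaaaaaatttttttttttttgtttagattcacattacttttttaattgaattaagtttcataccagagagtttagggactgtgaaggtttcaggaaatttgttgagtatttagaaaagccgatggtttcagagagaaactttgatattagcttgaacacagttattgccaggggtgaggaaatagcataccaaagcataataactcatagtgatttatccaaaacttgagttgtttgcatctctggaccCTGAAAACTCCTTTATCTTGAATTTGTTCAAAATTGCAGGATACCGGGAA
Internal start 2266185, chr17:2266136-2266435, minus strand: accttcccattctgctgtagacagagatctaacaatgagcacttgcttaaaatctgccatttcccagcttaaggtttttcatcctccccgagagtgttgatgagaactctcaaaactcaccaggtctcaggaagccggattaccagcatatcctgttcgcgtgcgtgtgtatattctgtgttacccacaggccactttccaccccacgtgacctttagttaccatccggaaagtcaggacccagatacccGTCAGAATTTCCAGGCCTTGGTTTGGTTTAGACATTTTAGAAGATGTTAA
These 3 promoters held 2, 2 and 8 CpG dinucleotides, in order of coordinate. The promoter of full-length SMG6, just outside the block, held 46. The start at 2236847 lies in the HAR123 window, together with starts of other short SMG6 transcripts.

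The 4 libraries held 35199 to 57554 read pairs in the region, and the block held 8469, 8859, 5271 and 5377 of them in hESC replicate 1, hESC replicate 2, neuroectoderm replicate 1 and neuroectoderm replicate 2. This order of libraries is kept in all lists of 4 values below. The block thus took 15.1% ± 0.383 (SD, n = 2) of the read pairs of the region in hESC and 15.1% ± 0.126 (n = 2) in neuroectoderm. A pair of block windows at least 20 kb apart held on average 15.9, 16.6, 7.36 and 7.80 read pairs, against 1.42 to 2.93 over all such pairs of the region. Single pairs were therefore counted with far less precision in neuroectoderm. The means of block and region cover unlike distances. All block pairs lie up to 230 kb apart, but only 2619 of the 10733 region pairs do. Of the read pairs of the block, 33.9% ± 0.554 joined positions of the same window in hESC and 49.9% ± 1.63 in neuroectoderm (n = 2 each), so the neuroectoderm libraries were also richer in the shortest contacts. Replicates of a cell type differed over block pairs by little more than counting noise, with a chi-square per degree of freedom of 1.05 in hESC and 1.11 in neuroectoderm, and by 1.18 to 1.35 between libraries of different cell types. The replicates were not identical and were kept as 2 libraries.

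Contact inside the SMG6 gene body exceeded the level of other window pairs at the same distance. The contact of each pair was divided by the mean over all equally distant pairs of the region in that library (observed over expected, where 1 is the mean of the region). Over the 253 block pairs it came to 1.17, 1.17, 1.25 and 1.26. The mean was 1.17 ± 0.00191 (SD, n = 2) in hESC and 1.25 ± 0.00806 (n = 2) in neuroectoderm. Both neuroectoderm libraries were above both hESC libraries, by less than 0.1 in the means. With an expectation from read pairs and distance alone, without balanced window totals, the cell types overlapped. The values were then 1.43 and 1.48 in hESC and 1.44 and 1.48 in neuroectoderm. With 2 libraries against 2 a two-sided exact permutation test cannot give a p below 0.33, so none is reported for such values. Of the 253 pairs, 171, 169, 166 and 176 were above 1, or 65.6% to 69.6%, against 41.7% to 44.5% of the 2619 pairs of the region up to 230 kb apart.

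The stretch of 24 windows before the block had 1.04 ± 0.0133 in hESC and 1.12 ± 0.0428 in neuroectoderm, and the stretch of 24 windows after it, which starts with SRR, had 0.819 ± 0.00505 and 0.785 ± 0.00228 (n = 2 each). The block was thus the highest of the 3 stretches in every library. The stretches were cut by number of windows. The stretch before the block holds the strongest border found in the region, described below, so some of its own pairs cross a border.

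Pairs that crossed a border of the block were below the mean. Across the HIC1 side, pairs of a block window with a window outside it reached 0.775, 0.723, 0.696 and 0.662 of the expected contact at the same range of distances (20 to 230 kb). Across the SRR side they reached 0.694, 0.660, 0.619 and 0.614. Contact inside the block divided by contact across both borders was 1.64 in hESC (1.59 and 1.69) and 1.93 in neuroectoderm (1.89 and 1.97). The libraries of the cell types did not overlap in this ratio, and it rests on the same 4 libraries with their unequal shares of short contacts, whose part in the difference was not tested.

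The excess inside the block grew with distance. The expectation at each distance also takes in pairs that cross borders, and their part in this rise was not tested. Pairs 20 to 40 kb apart were near the mean of the region, with 0.980, 0.974, 1.05 and 1.10. Pairs 50 to 90 kb apart had 1.14, 1.18, 1.28 and 1.24, and pairs 100 to 140 kb apart had 1.55, 1.46, 1.52 and 1.48. The values went on rising to 1.70, 1.73, 1.63 and 1.76 at 150 to 190 kb and to 1.75, 2.03, 2.40 and 2.28 at 200 to 230 kb, where only 10 pairs with 42 to 75 read pairs per library remained. Put as a slope, contact fell between 20 and 150 kb with distance to the power -0.488 ± 0.0130 inside the block in hESC, against -0.766 ± 0.0197 for pairs that did not touch it (n = 2). In neuroectoderm the slopes were -0.548 ± 0.0262 inside and -0.748 ± 0.0197 elsewhere (n = 2). The decay was the shallower inside the block in all 4 libraries.

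The neighbouring stretches were near the block at 20 to 40 kb, with means of 0.994 in hESC and 0.991 in neuroectoderm before it and of 0.908 and 0.888 after it. At 150 to 190 kb the stretch before the block had 1.06 ± 0.115 in hESC and 1.42 ± 0.0695 in neuroectoderm, and the stretch after it had 0.512 ± 0.00608 and 0.543 ± 0.159 (n = 2 each). The stretch before the block thus also rose with distance in neuroectoderm, to values below those of the block, and the stretch after it fell. In hESC the stretch before the block had 1.20 ± 0.00258 at 100 to 140 kb. Pairs that touched the block with neither window stayed between 1.00 and 1.13 at all distance classes in the means of both cell types. Pairs across the HIC1 border were low at short range, at 0.489 to 0.581 for 20 to 40 kb, and rose to 0.843 to 1.09 at 200 to 230 kb. Across the SRR side they did not rise, with 0.725 to 0.860 at 20 to 40 kb and 0.477 to 0.720 at 200 to 230 kb.

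**Figure D1:**
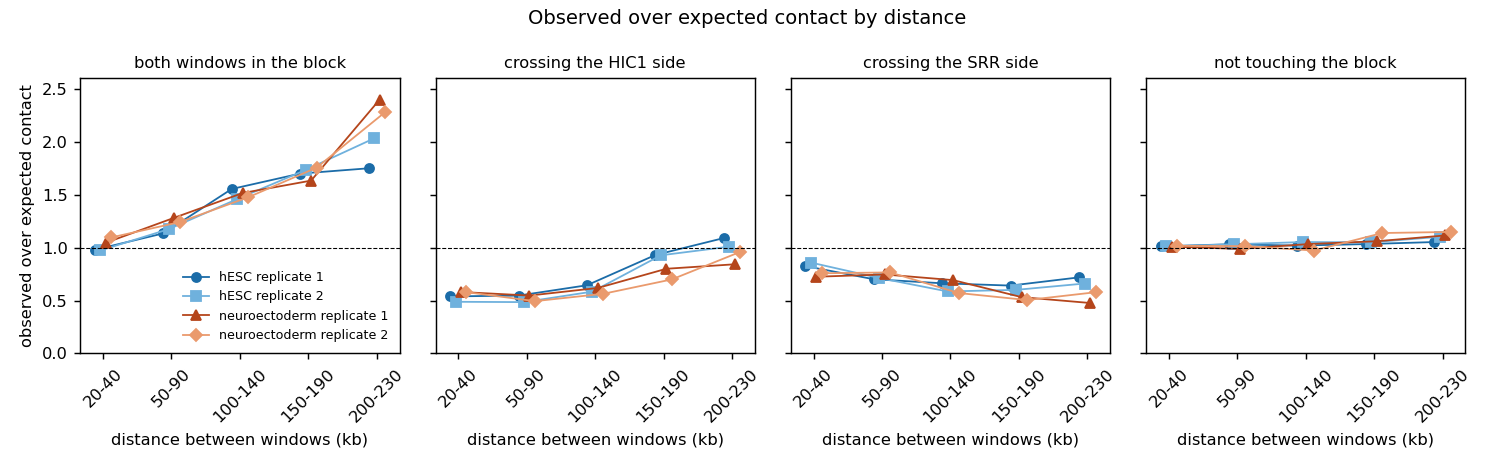
Observed over expected contact (vertical axis, 1 is the mean of the region at that distance) against the distance between windows in kb, for pairs with both windows in the SMG6 block, pairs crossing its HIC1 or SRR side, and pairs not touching it. Each line is 1 library, and the points of a class are shifted sideways for sight only. Inside the block all 4 libraries rise from 0.974 to 1.10 at 20 to 40 kb to between 1.75 and 2.40 at 200 to 230 kb.

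The excess was largest between distant parts of the gene body. The block was divided into 4 segments of 60 kb, numbered 1 to 4 from the HIC1 side. Segment 1 met segment 3 at 1.81, 1.76, 1.71 and 1.69 times the expected contact, and segment 4 at 1.76, 1.75, 1.87 and 1.88. These were the 2 highest of the 10 combinations in every library. Between segments 1 and 4 there were 325, 347, 174 and 168 read pairs. The lowest limit of the 95% Poisson intervals of this contact was 1.56, above the upper limits of segment 3 with segment 4 in every library, which reached 1.08 at most. These intervals cover counting error only. The combinations also differ in distance, with which the excess of the block grew. The part of distance in these contrasts was not tested.

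Within segments contact was lower, at 1.00, 1.06, 1.02 and 1.11 in segment 1 and 1.03, 1.03, 1.01 and 1.21 in segment 2. Segment 3 had 0.953, 1.09, 1.13 and 1.28 within itself, as high in neuroectoderm as some neighbouring segments with each other, and segment 4 had 0.860, 0.813, 1.02 and 0.942. Segment 3 met segment 4, its neighbour, at only 0.845, 0.846, 0.928 and 0.920. Segment 2 met segment 3 at 1.21, 1.21, 1.28 and 1.19 and segment 4 at 1.18, 1.25, 1.23 and 1.32. Segment 1 met segment 2 at 1.25, 1.19, 1.41 and 1.36. Segment 4 was thus above the mean in every library with segments 1 and 2 only, while segment 1 was above it with all other segments. Among combinations equally far apart, segment 1 with segment 3 was above segment 2 with segment 4 in every library. Segment 3 with segment 4 was below both other combinations of neighbouring segments in every library. The values of segment 1 with segment 4 rise to 2.02 in hESC and 2.13 in neuroectoderm where the expectation comes from read pairs and distance alone and window totals are not balanced.

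**Figure D2:**
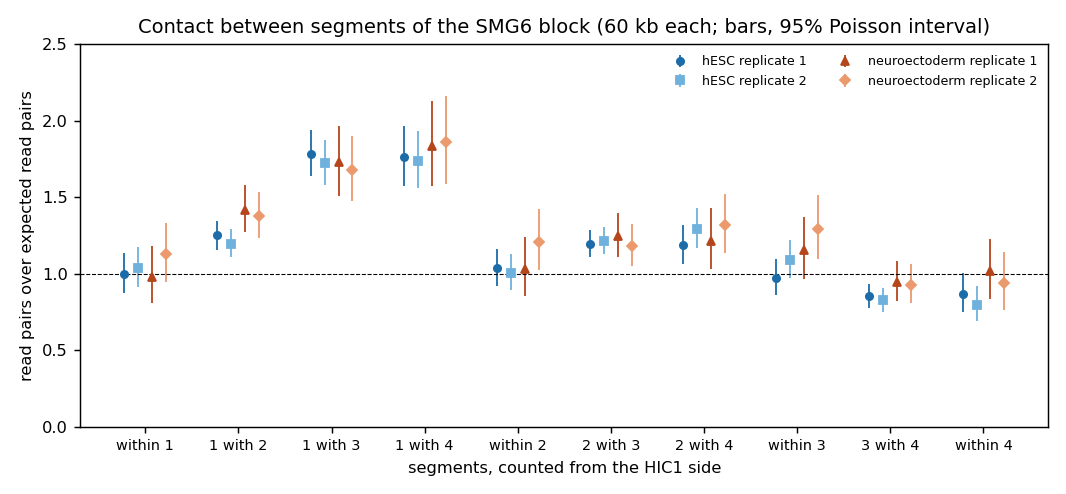
Read pairs over expected read pairs (vertical axis, 1 is the mean of the region at the same distances) for the 10 combinations of 60-kb segments of the SMG6 block, with 1 point per library and 95% Poisson intervals as bars. Segment 1 with segments 3 and 4 stands above all other combinations in each library, and segment 3 with segment 4 lies below 1. The combinations differ in distance.

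**Figure D3:**
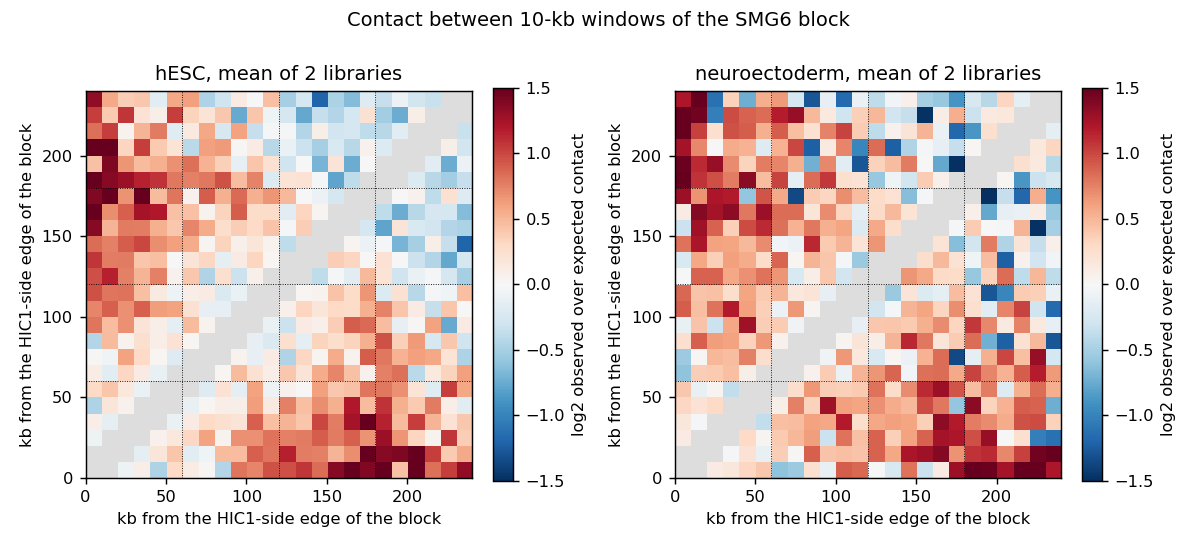
Mean log2 observed over expected contact of the 2 libraries of each cell type for window pairs of the SMG6 block at least 20 kb apart, with both axes in kb from its HIC1-side edge. Colours run from -1.5 to 1.5 and values beyond are drawn at the limits, grey pairs are closer than 20 kb, and dotted lines part the segments. In both cell types the pairs between the first 60 kb and the last 120 kb are mostly red, and pairs within the last 120 kb are mostly pale or blue.

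Along the gene body, contact with the rest of the block fell from the HIC1 end to the SRR end. The first window, chr17:2063501-2073500, met the other block windows at 1.45, 1.53, 1.41 and 1.46 times the expectation (129 to 316 read pairs over 22 pairs). The last window, which holds HAR53, met them at 0.902, 0.953, 0.999 and 0.931 (87 to 198 read pairs over 22 pairs). The first window was thus above the last in each library by more than 0.4. Windows above 1 numbered 21, 22, 23 and 23 of 24. Mean contact was higher in neuroectoderm in 19 of the 24 windows. The windows share pairs and libraries, and this count was not tested. It goes with the summed contact inside the block, in which the cell types overlapped with an expectation from distance alone.

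The HAR123 window was among the 5 windows with the higher mean in hESC. It met the rest of the block at 1.29 and 1.27 in hESC and at 1.06 and 1.03 in neuroectoderm, from 323, 299, 116 and 125 read pairs over 21 pairs. In hESC it stood above the windows on either side of it in the mean (1.14 and 1.17), and in neuroectoderm below them (1.26 and 1.20). The second of these neighbours, in which HAR123 may lie, thus had 1.17 in hESC and 1.20 in neuroectoderm. The window chr17:2283501-2293500 differed more between cell types, with 1.00 in hESC and 1.29 in neuroectoderm. None of these differences was tested. The 11 windows that hold a start of any SMG6 transcript had a median of 1.25 in hESC and 1.28 in neuroectoderm. The 13 windows without a start had 1.13 and 1.27, so the kinds differed more in hESC than in neuroectoderm. The windows nearest HIC1, with the highest contact in hESC (1.49, 1.49, 1.37 and 1.34), all hold a start. The part of position along the gene in this difference was not tested. Across the 24 windows the values of replicates went together with a Pearson's r of 0.896 in hESC and 0.726 in neuroectoderm, and those of libraries of different cell types with 0.552 to 0.659. These correlations describe windows that share libraries and are not tests. GC content and contact per window had a Pearson's r of 0.586, 0.676, 0.269 and 0.348, and GC content and the total read pairs of a window -0.397, -0.398, 0.0262 and -0.0745.

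Insulation was measured as the log2 of observed over expected contact between the 5 windows on either side of a window, so that a low value marks a border. The lowest value of the block was at its first window, with -0.99, -1.08, -0.73 and -0.88. The score rose to above 0 in every library over 12 consecutive windows, from chr17:2103501 to chr17:2223500, against 33 of 94 scored windows outside the block that were above 0 in all libraries. Averaged over the libraries, the highest score of the block was 0.435, at chr17:2123501-2133500. Windows outside the block reached 0.670, at chr17:2893501-2903500. Towards the SRR end of the block the score fell slowly and reached -0.34, -0.42, -0.33 and -0.46 in the last window. Inside the block the 4 libraries shared no separate minimum. A shallow dip at chr17:2163501-2173500 in the hESC libraries, to 0.17 and 0.11, stayed above 0, and the neuroectoderm libraries had 0.48 and 0.35 there.

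In this score only the HIC1 side had the form of a sharp border. The lowest score of all 118 scored windows, averaged over the libraries, lay at chr17:2043501-2053500, outside the block, in the window that holds MIR132 (chr17:2049908-2050008, minus strand) and MIR212 (chr17:2050271-2050380, minus strand). The window of HIC1 had the second lowest. At the SRR side the score stayed below 0 in all libraries from the last window of the block through the window chr17:2463501-2473500. In this score the low-coordinate side of the gene body thus had the sharper border. On the high-coordinate side the score declined gradually inside the gene. It was below 0 in all libraries from chr17:2243501 on, 60 kb from the end of the block. Scores near that end take in windows beyond it, and the part of this reach in the decline was not tested. Crossing contact at 20 to 40 kb was lower on the HIC1 side (0.489 to 0.581 against 0.725 to 0.860). Over 20 to 230 kb it was lower on the SRR side in every library (0.694, 0.660, 0.619 and 0.614 against 0.775, 0.723, 0.696 and 0.662). The score alone thus does not decide which side fits the name of a contact domain.

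**Figure D4:**
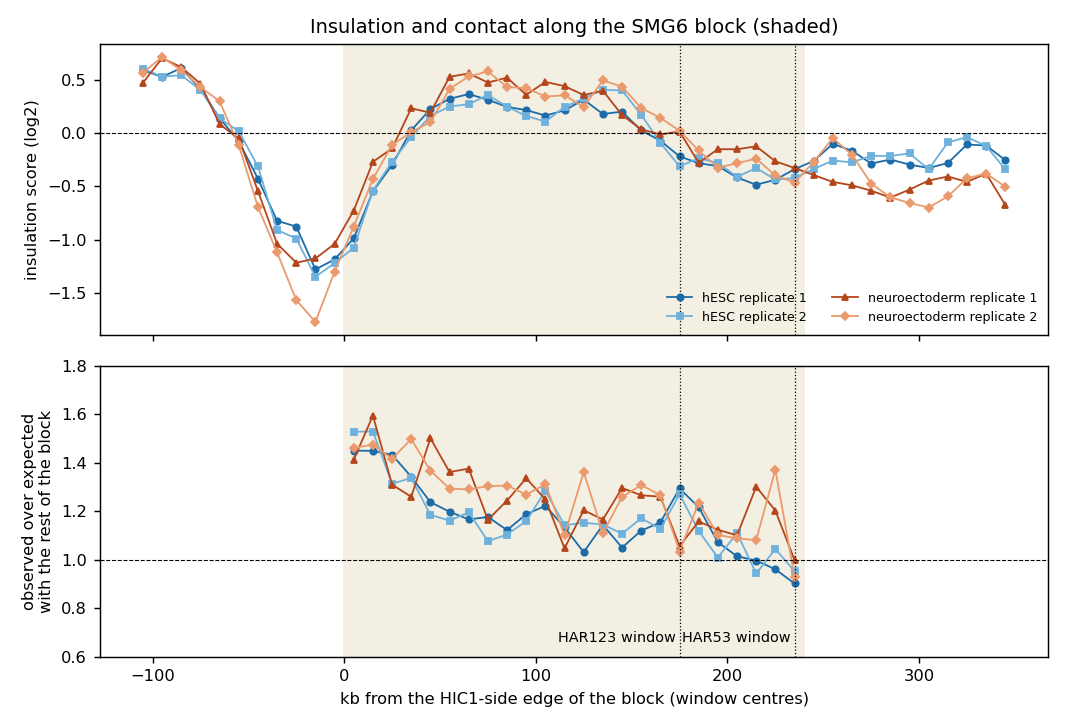
Insulation score (top, log2, low values mark borders) and observed over expected contact of each window with the rest of the block (bottom) against the position of the window centre in kb from the HIC1-side edge, with 1 line per library. The shaded span is the SMG6 block and dotted lines mark the windows of HAR123 and HAR53. The score is lowest just outside the HIC1-side edge and has no comparable minimum at the other edge.

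Single window pairs above the expectation were sought with an exact one-sided Poisson test of the read pairs of each library. Benjamini-Hochberg adjustment ran over all 10733 pairs of the region. The expectation was the mean of the region, so a pair that passed need not stand out from other block pairs. In hESC 1 of 253 block pairs passed an adjusted p of 0.05 in both replicates, against 0.13% of all pairs tested (14 pairs). It joined chr17:2093501-2103500 with the HAR123 window, 140 kb away. Its read pairs numbered 25 and 20 where 6.83 and 7.32 were expected, or 3.66 and 2.73 times the expectation, with adjusted p-values of 0.000106 and 0.0249 by the exact Poisson test. Block pairs 140 kb apart had 1.65, 1.68, 1.87 and 1.77 times the expectation as a whole. In hESC chr17:2093501-2103500 met the windows on either side of the HAR123 window at 2.35 and 2.39 and at 2.07 and 2.39. Whether the called pair exceeded other block pairs was not tested. In neuroectoderm the called pair held 7 and 8 read pairs where 3.19 and 3.40 were expected. This was 2.20 and 2.35 times the expectation, and the pair did not pass. The limma test between cell types gave a log2 change of -0.51 ± 0.31 (SE, neuroectoderm minus hESC) with an adjusted p of 0.802. The partner window holds a start of a short SMG6 transcript and most of the antisense gene SMG6-AS1 (RefSeq, chr17:2089738-2102303), a non-coding RNA named here after the values were seen.

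In neuroectoderm no block pair passed in both replicates, against 0.0% of all pairs tested (none of 10733). In single libraries 2 and 1 block pairs passed there (0.028% of all pairs in each library), and 7 and 10 in the hESC libraries (0.457% and 0.568% of all pairs). These numbers cannot be compared between cell types, since the neuroectoderm libraries held fewer read pairs per block pair than the hESC libraries.

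With the read pairs of both replicates summed before the test, 27 block pairs passed in hESC (10.7% of 253), against 1.74% of all pairs and 5.54% of the 2619 pairs up to 230 kb apart. These 27 pairs were 70 to 230 kb apart, with 23 of them at least 100 kb apart. They joined segment 1 with segment 3 or 4 in 21 cases, 22 had a partner among the 4 windows nearest HIC1, and none lay within a segment. All 27 were above expectation in both hESC replicates. In neuroectoderm 5 block pairs passed (1.98%), against 0.298% of all pairs and 0.802% of those up to 230 kb apart, and 4 of the 5 had a partner among the 4 windows nearest HIC1.

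The single pair that passed in both cell types on summed replicates, named after its values were seen, joined chr17:2093501-2103500 with chr17:2163501-2173500, 70 kb away. It held 38, 34, 23 and 10 read pairs, or 2.06, 1.66, 3.14 and 1.42 times the expectation. Every library was above 1, but the neuroectoderm call came mainly from replicate 1. The first and the last window of the block, 230 kb apart, shared 11, 6, 3 and 4 read pairs, or 3.29, 1.73, 1.75 and 2.88 times the expectation. This pair passed in no single library, and in hESC on summed replicates with an adjusted p of 0.0448 by the exact Poisson test.

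Contacts between the windows of SMG6 starts varied with their place. The HAR123 window and the window of the internal start at 2088761, 150 kb apart, shared 9, 6, 6 and 6 read pairs where 2.54 to 4.79 were expected. This was 1.88, 1.32, 2.36 and 2.28 times the expectation, all above 1. Block pairs 150 kb apart had 1.38, 1.67, 1.43 and 1.75 as a whole. In hESC the pair thus lay on both sides of that level, and in neuroectoderm above it. Whether it exceeded other block pairs was not tested. The internal starts at 2088761 and 2266185, 180 kb apart, shared 6, 5, 4 and 1 read pairs, or 1.37, 1.13, 1.60 and 0.393 times the expectation, with no common side of 1. The HAR123 window met the window of the start at 2266185, 30 kb away, at 1.01, 1.09, 0.546 and 1.03.

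Contacts of the full-length start, just outside the block, fell on both sides of the expectation. It met the HAR123 window, 70 kb away, at 0.765, 0.858, 0.976 and 0 times the expectation (7, 7, 4 and 0 read pairs, and a count of 0 allows up to 3 by a one-sided limit). It met the window of the start at 2266185, 40 kb away, at 0.747, 0.786, 0.506 and 0.735, below the mean in every library. It met the window of the start at 2088761, 220 kb away, at 0.512, 1.20, 1.60 and 1.06, from only 2, 4, 3 and 2 read pairs. The HAR53 and HAR123 windows, 60 kb apart, shared 6, 11, 3 and 2 read pairs, or 0.649, 1.10, 0.647 and 0.439 times the expectation. At counts this low a difference between cell types was not detectable for any of these pairs.

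No contact of the block differed between hESCs and neuroectoderm by the test across the region. Among 4525 pairs tested with limma, none passed an adjusted p of 0.05 (0.0% called), and none of the 253 block pairs did, with 0.798 as their smallest adjusted p. At an unadjusted p under 0.05 there were 13 block pairs (5.14%) and 231 pairs in all (5.1%), so the share in the block was that of the region. Of the 13, 6 were higher in neuroectoderm (2.21% of all pairs tested were called this way) and 7 lower (2.9%). The median log2 change was -0.01 over the block and -0.02 over all pairs tested, and 125 block pairs were higher and 128 lower. Under the exclusion of each library in turn no block pair passed either. The test has little power at this depth, so the result does not show that the contacts were alike.

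The 3 pairs with the lowest moderated t values all held contacts of 120 kb or more. The first window with chr17:2213501-2223500, 150 kb away, held 16, 19, 2 and 2 read pairs, or 2.37, 2.81, 0.771 and 0.832 times the expectation, with a log2 change of -1.54 ± 0.40 (SE). The window chr17:2083501-2093500 with chr17:2283501-2293500, 200 kb away, held 8, 7, 1 and 1 read pairs, with a change of -1.73 ± 0.48. The window chr17:2143501-2153500 with chr17:2263501-2273500, 120 kb away, held 10, 14, 2 and 1, with a change of -1.61 ± 0.50. In each of these pairs the hESC libraries were above 1 and the neuroectoderm libraries below it.

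The 3 pairs with the highest moderated t values went the other way, and none of these 6 passed the test (adjusted p 0.798 for each by limma). The window chr17:2183501-2193500 with chr17:2203501-2213500, 20 kb away, held 23, 32, 23 and 29 read pairs, or 0.610, 0.922, 1.46 and 1.70 times the expectation, with a log2 change of 1.02 ± 0.26. The window chr17:2203501-2213500 with chr17:2253501-2263500, 50 kb away, held 9, 14, 9 and 14, with a change of 1.32 ± 0.37. The window chr17:2163501-2173500 with chr17:2273501-2283500, 110 kb away, held 6, 11, 9 and 9, with a change of 1.29 ± 0.43. Here the neuroectoderm libraries held about as many read pairs as the hESC libraries from fewer reads in all.

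The share of the region's contact that lay inside the block was also close between cell types. Of the balanced contact between windows at least 20 kb apart, 10.3%, 10.3%, 10.6% and 10.7% was inside it, a log2 difference of 0.04 (neuroectoderm minus hESC). The sign of this difference depends on the unit and on the total used. In recovered read pairs the shares were 12.9%, 13.3%, 12.2% and 12.5%, a difference of -0.08. With balanced contacts inside single windows and between neighbouring windows added to the total only, they were 5.50%, 5.51%, 4.50% and 4.63%. This was a difference of -0.27. With such short contacts counted in the block too, it took 15.1% of the region's read pairs in both cell types. The higher share of contacts inside single windows in the neuroectoderm libraries enters the total behind the -0.27. Its part in the other differences was not tested. No change of the summed contact of the gene body on which all these measures agreed was seen.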

How the data were processed

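The study applied Hi-C to 2 hESC and 2 neuroectoderm libraries. Per the methods and the submitters' processing notes, the authors aligned both read ends to hg38 with Bowtie2 and built contact matrices with HOMER; versions are not given in the sources used here. The deposited values are a contact signal, balanced by the authors within each library and not scaled between libraries, over 2000 overlapping bins at steps of 1 kb. A bin was taken as 10 kb wide from 4500 bp left of its name, an assumption that places every window; the study's own list of sites uses this span. Every 10 bins 1 window was taken where all libraries had values, which left 52 windows of the region without a value and none in the block. Row totals were equal within a library, so read pairs were recovered by fitting 1 factor per bin (100% of positive values within 0.1 of a whole number) and served for depth, Poisson tests and 95% intervals. Balancing evens out window totals, so windows rich in reads are scaled down. Since the matrix headers give hESC and neuroectoderm the same source directory, groups rest on the labels.

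The expectation was the mean deposited value of equally distant pairs of that library, pairs of the block included. Cell types were compared in R 4.3.3 by limma 3.58.1 (lmFit and then eBayes with a trend). Totals over pairs at least 20 kb apart were scaled, pairs above the median mean were kept and log2(value + 1) was fitted, with Benjamini-Hochberg adjustment over all pairs tested, and changes are on that scale, which understates those of low pairs. Scripts were tested on simulated data. Windows and pairs were named by rule: the ends of the block, the windows of HAR123, HAR53 and SMG6 starts, the lowest insulation, pairs called in both replicates, and the 3 highest and lowest moderated t. The block, these lists and the segments were chosen with earlier results of these data known. Genes follow GENCODE 44, and promoters and SMG6-AS1 follow RefSeq (GRCh38.p14). Replicate numbers were not used as pairs in the main test. The correlation of same-numbered deviations was -0.00659 over 4525 pairs. It cannot decide on a pairing, since replicates differed over the region by no more than counting noise. Their chi-square per degree of freedom was 0.995 in hESC and 0.961 in neuroectoderm. Alternatives were other expectations, a minimum distance of 50 kb, windows moved by 5 kb or merged, other filters and scalings, and leaving out each library.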

Additional observations from a re-analysis of the deposited data

How the results depend on the processing

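The direction of the contact excess held under every alternative run. The separation of the cell types did not. With an expectation from distance alone their libraries overlapped in contact inside the block and in inside over crossing contact. With an expectation from distance alone, from pairs not inside the block, and with a minimum distance of 50 kb, contact inside the block was 1.46, 1.19 and 1.33 in hESC and 1.46, 1.29 and 1.41 in neuroectoderm, and with 1 library left out it was 1.17 to 1.17 and 1.25 to 1.26. Inside over crossing contact was 1.96 (distance alone) and 1.86 (50 kb) in hESC, and 1.85 (windows moved by 5 kb), 2.11 (distance alone) and 2.18 (50 kb) in neuroectoderm, with ranges of 1.59 to 1.69 and 1.89 to 1.97 when 1 library was left out. Contact of segment 1 with segment 4, an alternative set chosen after seeing the data, was 2.02 (distance alone) and 1.84 (pairs not inside the block) in hESC and 2.13 and 1.96 in neuroectoderm, and 1.75 to 1.76 and 1.87 to 1.88 from single libraries. The number of block pairs called in hESC, 1, was 15 with neighbouring windows merged, 16 with distance alone, 2 with pairs not inside the block, 27 on summed replicates and 7 to 10 from single libraries. In neuroectoderm it was 3 when merged, 5 on summed replicates and 1 to 2 from single libraries. The log2 change of the summed contact of the block, 0.04, was 0.047 with moved windows and 0.0066 at 50 kb. It was 0.041 to 0.046 when 1 library was left out. It reversed to -0.081 in recovered read pairs. It also reversed, to -0.27, where contacts inside single windows and between neighbouring windows were added to the total only. Apart from the changed unit or total in the last 2, the cause of these shifts was not tested. No block pair passed limma under any alternative. With the replicate block 0 block pairs were called as well (smallest adjusted p 0.168), and 2 of 4525 in the region. The same-numbered libraries share a number and the source directory named in their headers, and the labels give no shared batch or day for it. Depth limits all values of single pairs, most of all in neuroectoderm, where 2 block pairs had no read in each library.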
